A study of Mus musculus with 10 samples.

Results

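The core histone genes examined here are the genes of the histone clusters that encode the 4 proteins of the nucleosome core, H2A, H2B, H3 and H4. They were chosen by symbol and position, as protein-coding genes of the RefSeq table for the mm10 assembly (GRCm38.p6) whose symbols begin with H2ac, H2bc, H3c or H4c followed by a number, on chromosomes 13, 3 and 11. The rule gave 57 genes of 21627 protein-coding genes: 17 for H2A, 16 for H2B, 12 for H3 and 12 for H4. The set was proposed with earlier results of these peak lists known, selected on the presence of SOX15 peaks at histone genes, so its peak counts are descriptions and carry no test. A gene was counted as having a peak in a library when a peak summit lay within 1 kb of its annotated start or end or inside it.

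The libraries were made from mouse embryonic stem cells in 2i/LIF medium, which keeps them naive, in which a knock-in placed an HA epitope tag on SOX2 or on SOX15. These are related HMG-box transcription factors. Cells were fixed with 1% formaldehyde for 5 min in all groups, and chromatin was precipitated through the tag and sequenced (ChIP-seq), giving 2 SOX2 and 3 SOX15 libraries beside 5 inputs, whose signal was not analysed here. The labels name no clone, and separate cultures are not stated for the replicates, whose spread may be technical. The deposited SOX2 lists held 2676 and 4817 peaks in replicates 1 and 2. The SOX15 lists were shorter, with 217, 672 and 437 peaks in replicates 1 to 3. Read depth is unknown, and the lists reach different smallest −log10 q-values, from 1.31 in SOX15 replicate 3 to 2.76 in SOX15 replicate 1. Each peak carries a fold enrichment, which is the authors' own value and is comparable only within its list. Percentile ranks of fold within a list are used below, where 100 marks the highest fold of that list.

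Replication-dependent histone genes are short, have no introns and are transcribed in S phase, when new DNA has to be packaged. Their messages end in a stem-loop in place of a poly(A) tail, formed with the stem-loop binding protein and the U7 small nuclear ribonucleoprotein, and transcription of the clusters is gathered in a nuclear compartment, the histone locus body, around the coactivator NPAT. H2A and H2B genes often stand head to head and share 1 promoter, in which an octamer bound by OCT1 (Pou2f1) is a classical element of H2B genes. Embryonic stem cells divide fast and spend much of their cycle in S phase.

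Promoters of the highest-ranked SOX15 members and of a peakless pair are shown first, for their letters and not as the sequence under the summits. The sequences are from RefSeq, build GRCm38.p6, read 5′ to 3′ on the strand of the named gene and ending at the base before its annotated start. Of the 57 genes, 52 had an entry in the RefSeq promoter table. Capitals mark letters found by exact search on both strands: the octamer ATTTGCAT, CCAAT, the TATA box TATAAA, the H4 element core GGTCCG, the E2F motifs TTTGGCGC and TTTCCCGC, and the SOX cores ACAATG and ACAAAG. The 179 bases between H2ac8 and H2bc8 (chr13:23571221-23571399, plus strand) are the promoter of both genes. The H3c13 (chr3:96268404-96268653, plus strand), H2bc18 (chr3:96269450-96269699, plus strand) and H4c1 (chr13:23761250-23761499, minus strand) promoters belong to members with summits of high rank in all 3 SOX15 libraries. H4c17 (chr13:21811496-21811745, plus strand) and H4c18 (chr13:21832198-21832447, minus strand) had no peak in any library. H2bc18, H4c17 and H4c18 were chosen for display after their values were seen.
H2bc8: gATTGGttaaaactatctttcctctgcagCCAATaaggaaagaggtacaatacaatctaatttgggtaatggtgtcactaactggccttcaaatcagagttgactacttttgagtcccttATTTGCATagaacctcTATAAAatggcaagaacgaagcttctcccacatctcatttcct
H3c13: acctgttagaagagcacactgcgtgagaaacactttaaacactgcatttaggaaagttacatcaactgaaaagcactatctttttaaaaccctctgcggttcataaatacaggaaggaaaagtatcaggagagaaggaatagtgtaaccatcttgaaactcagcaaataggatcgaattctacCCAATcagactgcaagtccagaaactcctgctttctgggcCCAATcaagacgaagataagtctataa
H2bc18: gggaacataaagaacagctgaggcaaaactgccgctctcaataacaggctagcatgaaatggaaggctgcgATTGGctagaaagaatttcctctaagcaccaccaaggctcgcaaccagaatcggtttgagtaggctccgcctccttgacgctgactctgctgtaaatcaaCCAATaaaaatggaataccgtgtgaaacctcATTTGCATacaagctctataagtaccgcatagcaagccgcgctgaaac
H4c1: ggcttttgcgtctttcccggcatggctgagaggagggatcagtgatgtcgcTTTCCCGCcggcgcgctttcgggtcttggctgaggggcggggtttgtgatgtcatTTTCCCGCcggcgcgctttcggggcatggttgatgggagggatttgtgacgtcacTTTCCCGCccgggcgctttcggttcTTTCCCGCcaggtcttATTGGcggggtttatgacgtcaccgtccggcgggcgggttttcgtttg
H4c17: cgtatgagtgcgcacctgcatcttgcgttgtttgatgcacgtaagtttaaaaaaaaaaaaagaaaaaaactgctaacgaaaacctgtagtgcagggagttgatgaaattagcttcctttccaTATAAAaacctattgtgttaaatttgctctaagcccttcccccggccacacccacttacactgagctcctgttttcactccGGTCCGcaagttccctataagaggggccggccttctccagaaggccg
H4c18: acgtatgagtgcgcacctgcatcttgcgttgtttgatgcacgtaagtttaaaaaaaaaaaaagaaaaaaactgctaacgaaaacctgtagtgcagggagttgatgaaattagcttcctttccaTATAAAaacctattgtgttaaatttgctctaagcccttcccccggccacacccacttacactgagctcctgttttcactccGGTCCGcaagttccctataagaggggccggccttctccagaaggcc

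On the H2bc8 strand the shared promoter holds an octamer beginning 59 bases and a TATA box beginning 43 bases before the H2bc8 start, and CCAAT letters at the H2ac8 side. H2bc18 has an octamer beginning 48 bases before its start. H3c13 has 2 CCAAT boxes, and H4c1 has 4 copies of TTTCCCGC and no octamer. H4c17 and H4c18 each hold a TATAAA and the H4 element. None of these windows carries the SOX cores ACAATG or ACAAAG in the bases shown. The second of these cores does lie just past the bases shown for H2ac8 and H2bc8, inside H2bc8. On the H2ac8 strand it begins 198 bases before the H2ac8 start. At H2ac8, H2bc8, H3c13, H2bc18 and H4c1 the strongest summit of each SOX15 library lay outside the bases shown. A match is a description of the letters, and a missing match says only that these letters are absent from the window.

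Most core histone genes had a SOX15 peak, and many had a SOX2 peak. In SOX15 replicate 1, 45 of 57 genes (78.9%) had one, where 0.62% of all protein-coding genes did. In replicate 2 the count was 39 (68.4%), beside 1.95% of all genes, and in replicate 3 it was 40 (70.2%), beside 1.23%. The mean over the 3 libraries was 72.5% ± 5.64 (SD, n = 3). SOX2 replicate 1 had a peak at 37 genes (64.9%), beside 5.27% of all genes, and SOX2 replicate 2 at 24 (42.1%), beside 8.27%. The mean over the SOX2 libraries was 53.5% ± 16.1 (SD, n = 2). The lowest SOX15 library lay above the highest SOX2 library at these genes. The set was selected on SOX15 peaks at histone genes, so this order was not tested, and 2 libraries against 3 cannot give an exact p below 0.1.

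A peak in at least 2 of the 3 SOX15 libraries was found at 44 genes (77.2%), beside 0.749% of all protein-coding genes. Of the 57 genes, 32 had a peak in all 3 SOX15 libraries, 12 in 2, 4 in 1 and 9 in none. Both SOX2 libraries had a peak at 23 genes (40.4%), beside 4.66% of all genes. The SOX2 libraries overlapped unevenly, since 14 genes had a peak in replicate 1 alone and 1 gene, H4c11, in replicate 2 alone. Without SOX2 replicate 2, replicate 1 alone gave a SOX2 count of 37. Every gene with a SOX2 peak in any library also had a SOX15 peak in at least 1 library, while 6 genes with at least 2 SOX15 calls had no SOX2 peak: H3c7 and H3c8 on chromosome 13, and H2ac21, H2ac20, H2bc21 and H3c15 on chromosome 3. H2ac10, H2bc9, H3c6 and H4c14 had a peak in 1 SOX15 library and no SOX2 peak. All 5 libraries had a peak at 20 genes. The share over all protein-coding genes was not computed for these overlaps between the factors. Neighbouring genes lie close enough to share a peak, so genes are not independent: in SOX15 replicate 1, 31 of the 54 peaks at members were within 1 kb of 1 member, 21 of 2 and 2 of more.

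**Figure D1:**
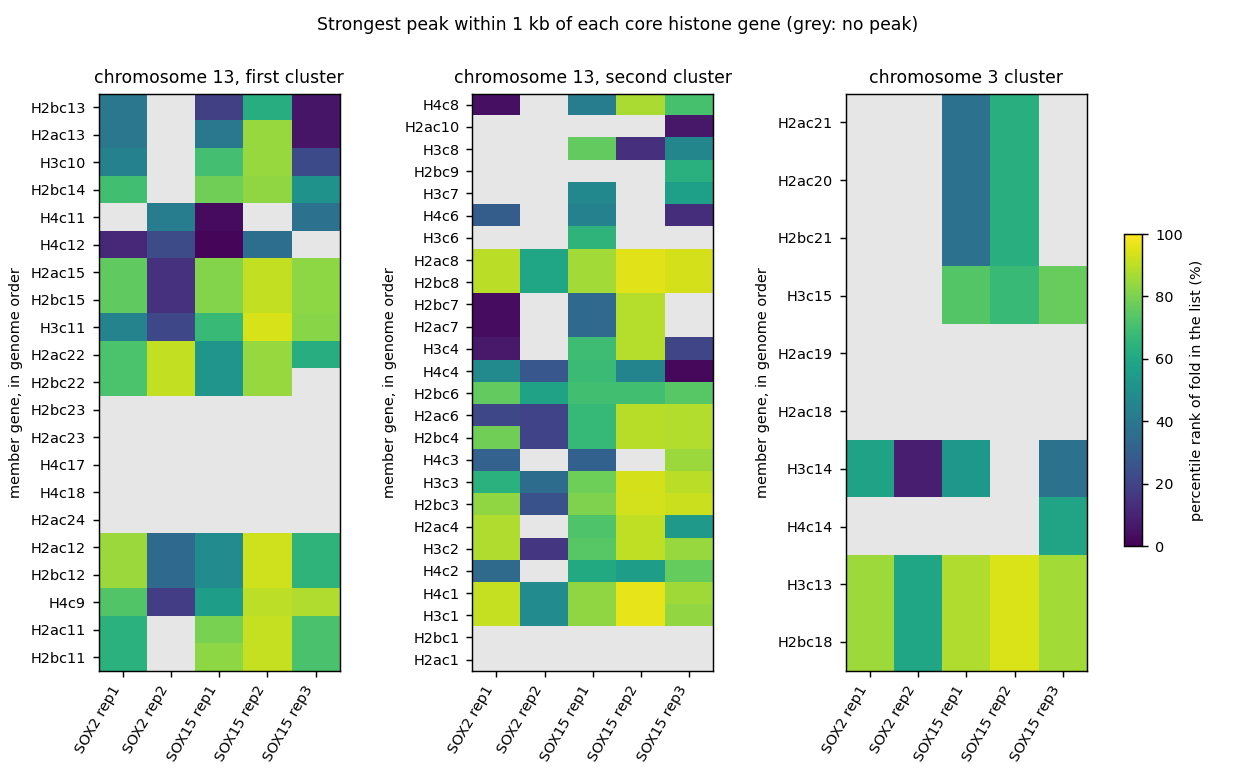
Each row is a core histone gene in genome order within its cluster, each column a library, and the colour is the percentile rank, within that library's list, of the highest fold within 1 kb (grey: no peak). Blocks of grey run through all 5 columns at H2bc23 to H2ac24, at H2bc1 and H2ac1 and at H2ac19 and H2ac18, and the chromosome 3 genes H2ac21 to H3c15 are grey in both SOX2 columns.

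Among H2A genes, 11, 11 and 9 of 17 had a peak in SOX15 replicates 1, 2 and 3, and 9 and 5 in SOX2 replicates 1 and 2. Among H2B genes, whose product pairs with H2A in the dimers added last to a nucleosome, the counts were 13, 13 and 11 of 16 for SOX15 and 12 and 8 for SOX2. H3 genes had 12, 9 and 11 of 12 for SOX15, so that replicate 1 had a peak at every H3 gene, and 8 and 6 for SOX2. H4 genes had 9, 6 and 9 of 12 for SOX15 and 8 and 5 for SOX2. The mean SOX15 shares were 60.8% ± 6.79 for H2A, 77.1% ± 7.22 for H2B, 88.9% ± 12.7 for H3 and 66.7% ± 14.4 for H4 (SD, n = 3). The H2A share was below the H2B share in all 5 libraries: the H2A share minus the H2B share was -22.1 and -20.6 percentage points for SOX2 and -16.5, -16.5 and -15.8 for SOX15. H3 lay above H4 by 25, 25 and 16.7 points for SOX15 and by 0 and 8.33 points for SOX2. With at least 2 SOX15 calls required, the counts were 11 of 17 H2A, 13 of 16 H2B, 11 of 12 H3 and 9 of 12 H4 genes. Without SOX15 replicate 1, and with both remaining libraries required, the H4 count was 5. With both SOX2 libraries required the counts were 5, 8, 6 and 4, and in SOX2 replicate 1 alone the H2A and H4 counts were 9 and 8. Head-to-head H2A and H2B genes share peaks, so the classes were not called independently, and the class differences were not tested.

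The genes form 3 clusters when members less than 500 kb apart are joined. The first on chromosome 13 (21715711 to 22043658) holds 21 genes, the second (23531044 to 23934913) holds 26, and the cluster on chromosome 3 (96219885 to 96270192) holds 10. Under the symbol rule chromosome 11 had no member. In the first cluster 16, 15 and 14 genes had a peak in SOX15 replicates 1, 2 and 3, and 15 and 10 in SOX2 replicates 1 and 2. In the second the counts were 22, 18 and 21 for SOX15 and 19 and 11 for SOX2. On chromosome 3 they were 7, 6 and 5 for SOX15 and 3 and 3 for SOX2. The chromosome 3 share was below that of the second chromosome 13 cluster in all 5 libraries, by 14.6, 9.23 and 30.8 percentage points for SOX15 and by 43.1 and 12.3 for SOX2. Of the 6 genes with at least 2 SOX15 calls and no SOX2 peak, 4 lay on chromosome 3, and 3 of these share 1 peak. With both remaining libraries required, the chromosome 3 count of 7 was 3 without SOX15 replicate 1 and 4 without SOX15 replicate 2.

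**Figure D2:**
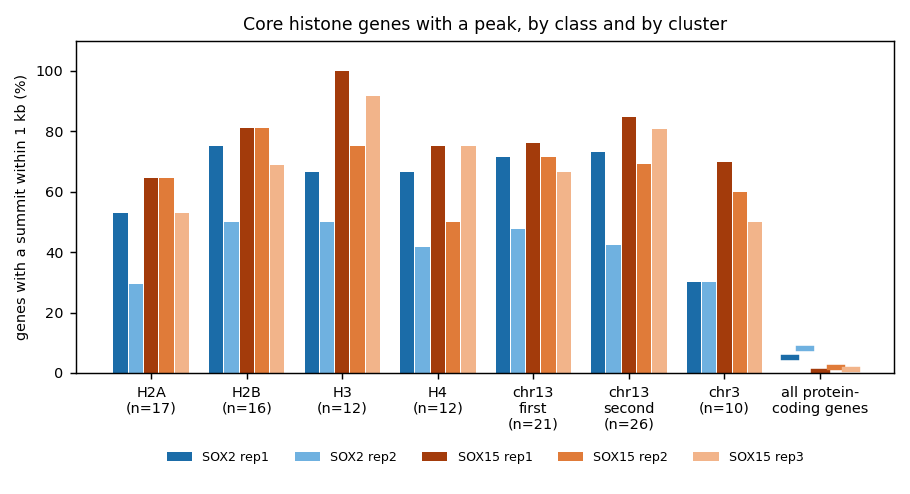
Bars give the percentage of genes with a summit within 1 kb in each library, by histone class and by cluster, with the number of genes under each group, and short marks at the right give the percentage over all protein-coding genes. H2A bars are lower than the H2B bars of the same library in all 5 libraries, and the chromosome 3 cluster is at 30.0% in both SOX2 libraries.

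Within the cluster spans the peaks lay mostly at histone genes. The spans held 61, 55 and 49 peaks in SOX15 replicates 1, 2 and 3, of which 54, 49 and 43 lay within 1 kb of a core histone gene. A further 6 in each SOX15 library lay only at genes of the linker histone H1, and 1, 0 and 0 at neither. In SOX2 replicates 1 and 2 the spans held 51 and 27 peaks, with 44 and 20 at core histone genes, 5 and 3 at H1 genes only, and 2 and 4 at neither. The 10 other protein-coding genes inside the spans include the iron regulator Hfe, the phosphate and urate transporter genes Slc17a1 to Slc17a4 and Trim38. They also include H4bc24, a histone gene by its symbol that the rule left out. None of the 10 had a peak in any of the 5 libraries. Peaks at core histone genes made up 24.9% of the list in SOX15 replicate 1 (Wilson 95% interval 19.6 to 31.0), 7.29% in replicate 2 (5.56 to 9.51) and 9.84% in replicate 3 (7.39 to 13). They made up 1.64% (1.23 to 2.20) and 0.415% (0.269 to 0.640) of the lists of SOX2 replicates 1 and 2. These shares depend on how many peaks each list holds, and the intervals cover counting error only.

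Within their lists, member peaks stood at a median percentile rank of 59.9, 83.5 and 65.0 in SOX15 replicates 1, 2 and 3, and of 45.4 and 26.2 in SOX2 replicates 1 and 2. The median fold of member peaks was 9.06, 8.22 and 7.34 in the SOX15 libraries, where the medians of the whole lists were 8.34, 5.32 and 6.41. In the SOX2 libraries it was 8.04 and 6.58, where both list medians were 8.31. The highest 10% of each list by fold held 0, 12 and 2 member peaks for SOX15 and 1 and 1 for SOX2. The SOX15 lists are shorter than the SOX2 lists, so ranks in the 2 kinds of list do not compare strength of binding, and the difference was not tested. Member peaks were wide: the median width was 593.5, 478 and 503 bp in the SOX15 libraries, beside 420, 252 and 290 bp for the other peaks of the same lists. In SOX2 replicate 1 it was 449 bp beside 303 bp, and in replicate 2 it was 339 bp beside 331 bp.

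**Figure D3:**
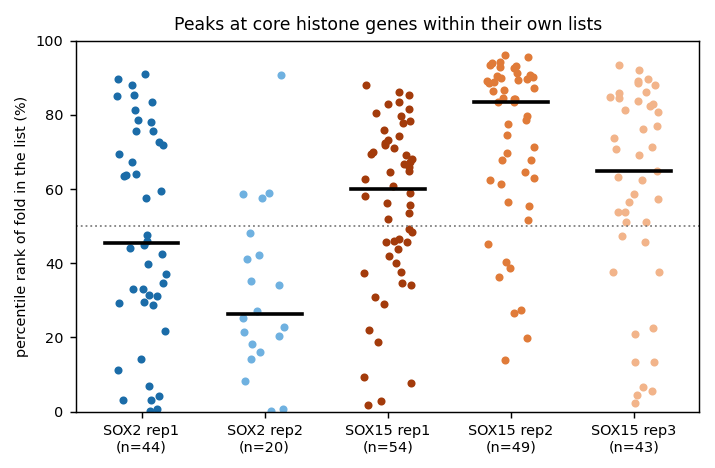
Each point is a peak within 1 kb of a core histone gene, placed by the percentile rank of its fold within its own list; the horizontal bars are medians and the dotted line marks 50. The medians lie above the dotted line in the 3 SOX15 libraries and below it in both SOX2 libraries.

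The H2A and H2B genes with the highest mean rank over the SOX15 libraries were H2ac8 (chromosome 13, 23570663 to 23571220, minus strand) and H2bc8 (23571400 to 23571863, plus strand), which share peaks. Their strongest peak had a fold of 21.1, 24.7 and 20.4 in SOX15 replicates 1, 2 and 3 and of 17.2 and 9.22 in SOX2 replicates 1 and 2. Its rank was 86.2 or higher in every SOX15 library, and 89.8 and 58.7 in the SOX2 libraries. H2bc18 and H3c13 on chromosome 3 share a strong peak, with folds of 24.0, 19.3 and 11.4 for SOX15 and 14.6 and 9.22 for SOX2. Its summit lay 86, 77 and 89 bp downstream of the H2bc18 start for SOX15 and 98 and 65 bp downstream for SOX2. It is therefore a peak at the start of H2bc18, and H3c13 is counted through its nearness. H2bc3 had folds of 17.4, 15.8 and 17.2 for SOX15, a mean of 16.8 ± 0.858 (SD, n = 3), and of 13.9 and 6.51 for SOX2. H2ac15 had folds of 17.7, 12 and 10.3 for SOX15 and 11.7 and 5.76 for SOX2. H2ac6 had folds of 11.3, 9.96 and 12.9 for SOX15 and 6.41 and 6.19 for SOX2.

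H4c1 and H3c1 are neighbours whose strongest peak lies between them in most libraries. For H3c1 the folds were 19.4, 25.9 and 10.4 for SOX15 and 18.1 and 8.18 for SOX2. H4c1 had the same values except in SOX15 replicate 3, where a peak past its own end had the higher fold, 11.2. The value of 25.9 ranked at 96.1 in SOX15 replicate 2. H3c3 had folds of 15.3, 16.6 and 14 for SOX15 and 9.79 and 7.14 for SOX2. H4c9 had folds of 8.80, 10.4 and 12.5 for SOX15 and 11.2 and 6.01 for SOX2, and H4c8, at the lower end of the second cluster, had 7.51, 9 and 7.95 for SOX15, 4.84 in SOX2 replicate 1 and no peak in SOX2 replicate 2. The third H4 gene by rank thus stood lower in the lists than the third gene of any other class, with a mean SOX15 rank of 66.7 beside 81.5 for H2ac6, 88.6 for H2bc3 and 87.0 for H3c3. This order is a description of the genes the ranking picked. A rank may come from a peak shared with a neighbour, as at H2ac6, whose SOX15 peaks are also those of H2bc4.

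Other members of the first chromosome 13 cluster spanned the range. H3c11 had folds of 11.4, 18.4 and 10.3 for SOX15 and 7.99 and 6.26 for SOX2. H2bc11 had 18.8, 12.8 and 8.04 for SOX15, 9.78 in SOX2 replicate 1 and no peak in SOX2 replicate 2. H2bc14 had 15.5, 8.22 and 6.44 for SOX15 and 10.5 in SOX2 replicate 1. The H4 genes H4c11 and H4c12 stood low and uneven: H4c11 had 4.26 and 5.86 in SOX15 replicates 1 and 3 and 7.65 in SOX2 replicate 2, and H4c12 had 4.25 and 4.76 in SOX15 replicates 1 and 2 and 5.69 and 6.34 for SOX2. H2ac12 and H2bc12 share peaks, whose folds were 8.15, 15.1 and 7.34 in the SOX15 lists, 14.5 in SOX2 replicate 1 and 7.08 in SOX2 replicate 2.

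In the second chromosome 13 cluster 3 of the 6 genes from H2ac10 to H3c6 had a peak in at least 2 SOX15 libraries, and 1 of the 6 had a SOX2 peak. H2ac10 had a single peak, of 4.21 in SOX15 replicate 3, and H2bc9 had a single peak there too, of 7.17. H3c6 had 1 peak, of 11.1 in SOX15 replicate 1. H3c7 had 7.93 and 6.66 in SOX15 replicates 1 and 3, and H4c6 had 7.65 and 4.68 in the same libraries and 6.92 in SOX2 replicate 1. H3c8 had 14.6, 3.61 and 6.13 for SOX15 and no SOX2 peak. From H2ac8 to H3c1 every member had a peak in at least 2 SOX15 libraries. H2ac4 and H3c2, which are neighbours, had 12.9, 10.8 and 6.51 and 13.5, 10.8 and 10.6 for SOX15, where the 10.8 is a shared peak. They also share the SOX2 replicate 1 peak of 16.1, whose summit lay 131 bp past the end of H2ac4. In SOX2 replicate 2 H3c2 had a fold of 5.89 and H2ac4 had no peak.

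By SOX2 rank the first member was H2ac22, with a mean rank of 81.3, shared with H2bc22. It had SOX2 folds of 11 and 18.1 and SOX15 folds of 8.50, 8.39 and 7.08, at ranks of 52.1, 84.4 and 62.5. H2bc22, its head-to-head partner, shared these peaks except in SOX15 replicate 3, where it had none within 1 kb. The summits lay past the end of H2ac22, by 122 and 147 bp in the SOX2 libraries and by 274, 257 and 376 bp in the SOX15 libraries.

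The chromosome 3 genes differed among themselves. H2bc18 and H3c13 had a peak in all 5 libraries. H3c15 had a peak in all 3 SOX15 libraries, with folds of 13, 6.28 and 8.81, and in no SOX2 library. H2ac21, H2ac20 and H2bc21 shared 1 SOX15 peak with folds of 6.81 and 6 in replicates 1 and 2, and had none in replicate 3 or in SOX2. In SOX15 replicate 2 H2ac21 and H2ac20 also had a weaker peak, of 4.84, with its summit at -26 bp from the H2ac21 start. H3c14 had SOX15 folds of 8.56 in replicate 1 and 5.86 in replicate 3, and of 9.03 and 5.25 in SOX2, H4c14 had a single peak, of 6.73 in SOX15 replicate 3, and H2ac18 and H2ac19 had none.

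Summits lay mostly just past the ends of the genes. Positions were measured at the 49 genes of at most 1 kb with a known strand. Each peak was given to its nearest such gene, and the strongest peak given to a gene was taken in each library, so that a peak shared by neighbours counts once and a gene with shared peaks alone may have none. The start zone runs from 250 bp before to 150 bp after the annotated start. The zone past the end is wider, since it reaches up to 1 kb, so shares by zone do not compare summits per base. The strongest summit so assigned lay past the gene end at 25 of 35 genes in SOX15 replicate 1 (71.4%), at 23 of 30 in replicate 2 (76.7%) and at 29 of 32 in replicate 3 (90.6%). In the SOX2 libraries it did so at 26 of 28 (92.9%) and 14 of 18 genes (77.8%). The means were 79.6% ± 9.92 for SOX15 (SD, n = 3) and 85.3% ± 10.7 for SOX2 (SD, n = 2), so the factors overlapped. The strongest summit was in the start zone at 8, 3 and 2 genes for SOX15 and at 1 and 2 genes for SOX2. Summits in the body between these zones were rare, at 1, 2 and 0 genes for SOX15 and at none for SOX2. When each gene took its strongest peak within 1 kb, shared or not, 24 of 39, 19 of 34 and 27 of 35 genes had it past the end for SOX15, a mean of 64.9% ± 11 (SD, n = 3), and 11, 4 and 3 had it in the start zone. For SOX2 it was past the end at 24 of 33 and 14 of 20 genes, a mean of 71.4% ± 1.93 (SD, n = 2).

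With every peak counted once at its nearest gene, 32 of 50, 28 of 46 and 31 of 38 summits lay past the end in the SOX15 libraries, a mean of 68.8% ± 11.2 (SD, n = 3), and 15, 13 and 5 lay in the start zone, a mean of 23.8% ± 9.26. In the SOX2 libraries 32 of 41 and 14 of 18 lay past the end and 8 and 2 in the start zone. The median distance past the end was 289, 222.5 and 227 bp for SOX15 and 213.5 and 197 bp for SOX2. Summits in the start zone had medians of 28, 16 and 71 bp downstream of the start for SOX15 and 27.5 and 18.5 bp for SOX2. At the 17221 other protein-coding genes with a strand, which are of any length, 13.9%, 6.50% and 13.9% of SOX15 summits and 2.23% and 1.61% of SOX2 summits lay past the end. There 66.7%, 84.8% and 69.4% of SOX15 summits lay in the body, which is a larger target in longer genes.

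**Figure D4:**
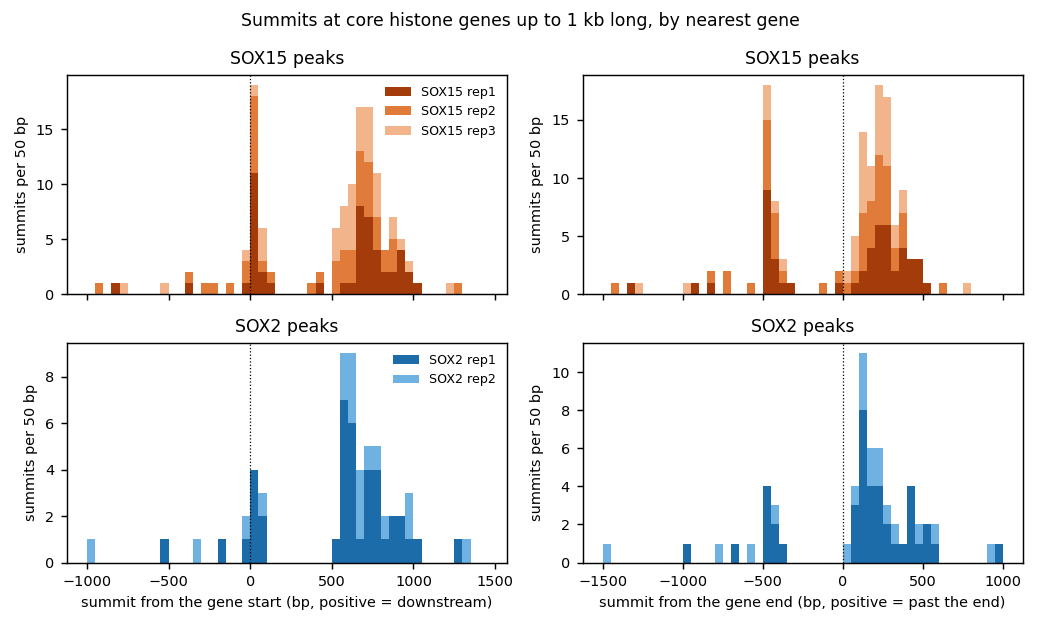
Histograms count summits per 50 bp at core histone genes of at most 1 kb, each summit once at its nearest gene, measured from the gene start (left) and the gene end (right), with SOX15 above and SOX2 below and the libraries stacked. Most summits form a group past the gene end, with library medians of 197 to 289 bp, and a smaller group lies at the start.

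The class with start-zone summits depends on how summits of shared promoters are given out. With each summit at its nearest gene, a start-zone summit in at least 2 SOX15 libraries was found at 6 of 11 H2B genes (H2bc3, H2bc8, H2bc11, H2bc12, H2bc15 and H2bc18), at 2 of 10 H3 genes (H3c4 and H3c10), at 1 of 17 H2A genes (H2ac4) and at 0 of 11 H4 genes. With each summit counted at every gene within 1 kb, H2ac8, H2ac11, H2ac12 and H2ac15 joined H2ac4, which made 5 of 17 H2A genes, and the H2B, H3 and H4 counts were 6, 2 and 0. With the nearest gene again, a summit past the end in at least 2 SOX15 libraries was found at 7 of 11 H2B, 8 of 10 H3, 8 of 17 H2A and 9 of 11 H4 genes. Of the 9 genes with a repeated start-zone summit 8 also had a repeated summit past the end, the exception being H2bc18. In both SOX2 libraries 1 gene, H2bc18, had a start-zone summit and 13 genes had a summit past the end. With every gene within 1 kb counted, H2ac8 and H2bc8 also had a start-zone summit in both SOX2 libraries. The class counts were not tested. H2bc8 shows the paired pattern in each SOX15 library. Its start summits lay 22, 26 and 11 bp downstream of the start, with folds of 21.1, 16.2 and 13.3. Its other summits lay 194, 150 and 44 bp past the end, with folds of 20.6, 24.7 and 20.4. H2bc3 had start summits at 104, 105 and 93 bp, with folds of 17.4, 10.0 and 9.87, and summits 171, 169 and 88 bp past its end, with folds of 11, 15.8 and 17.2. H3c3, by contrast, had a start summit in SOX15 replicate 1 alone and summits 470, 377 and 238 bp past the end.

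In the 9 head-to-head H2A and H2B pairs, whose starts lie 164 to 281 bp apart, a summit in the shared promoter region can be set against both starts. Such summits were nearer the H2B start in 10 of 12 cases for SOX15 and in 4 of 5 for SOX2. Their median position was 16.5 bp downstream of the H2B start and at -204 bp from the H2A start for SOX15, and 24 bp and -210 bp for SOX2. The 12 SOX15 summits come from 5 pairs and repeat between libraries, so they are not independent. The exceptions were H2ac15 and H2bc15 in SOX15 replicate 3, with the summit 71 bp downstream of the H2A start, H2ac22 and H2bc22 in SOX15 replicate 2, and H2ac8 and H2bc8 in SOX2 replicate 2. In the shared H2ac8 and H2bc8 promoter printed above, the SOX15 summits therefore fall beyond the last base shown, inside the first bases of H2bc8. In replicates 1, 2 and 3 these summits lay at -202, -206 and -191 bp from the H2ac8 start. The SOX core inside H2bc8 begins at -198 bp from the same start. This is a single match, and nearness of summits to SOX cores was not tested.

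Promoter letters differed by class in the whole windows from 250 bp before to 50 bp after the start. The octamer was in 12 of 52 members (23.1%), beside 1.75% of 27025 promoters of the table: 6 of 17 H2A, 6 of 14 H2B, 0 of 10 H3 and 0 of 11 H4 genes. CCAAT was in 44 members (84.6%), beside 37.9% of all promoters, and it was in every H2A, H2B and H3 member but in 3 of 11 H4 members. TATAAA was in 30 members (57.7%), beside 14.2%. The H4 element core was in 12 members (23.1%), beside 8.39%, and 10 of these were H4 genes. Either SOX core was in 12 members (23.1%), beside 28.8% of all promoters, in 5 H2A, 3 H2B, 2 H3 and 2 H4 genes. The SOX-OCT composite motif was in 0 members, beside 0.0259% of all promoters, and either E2F motif was in 1 member, H4c1, which is 1.92% beside 1.63%. Of the 6 short H2B genes with an octamer, 4 had a repeated SOX15 start-zone summit, and of the 5 without, 2 had one, whichever way summits were given to genes. With each summit at its nearest gene, such a summit was found at 1 of the 6 H2A genes with an octamer and at 0 of the 11 without. With every gene within 1 kb counted, the H2A counts were 3 of 6 and 2 of 11.

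Members without any peak stood in blocks. H2bc23, H2ac23, H4c17, H4c18 and H2ac24 follow one another in the first chromosome 13 cluster, from 21806412 to 21833475. H2bc1 and H2ac1, the genes of the testis H2B and H2A variants, form a pair at the far end of the second cluster, more than 100 kb from the other members. H2ac19 and H2ac18 adjoin on chromosome 3. Some of these genes share long runs of promoter sequence, to which short reads may map in more than 1 place, and gene bodies were not compared. The longest run of letters that the promoter windows of H4c17 and H4c18 share is 285 bases, most of which the printed pair shows, and the windows differ by an edit distance of 3. The other pairs had larger edit distances: H2ac19 and H2ac18 share a run of 219 bases at an edit distance of 82, H2bc23 and H2ac24 share 233 at 155, and H2ac23 and H2ac24 share 200 at 158. A run that is shifted or reversed between 2 windows raises their edit distance, so these distances do not measure how alike the shared sequence is. Over the 9 peakless genes the median of the longest run shared with another member was 219 bases (range 13 to 285), beside 16 bases (range 0 to 231) over the 43 members with a peak and a promoter entry. H3c15 and H3c14 share 231 bases and had peaks in 3 and 2 SOX15 libraries. H2bc1 and H2ac1 were the only peakless genes with short shared runs, of 13 bases each, and every other peakless gene shared 200 bases or more. The sources used here do not give how multiply mapped reads were treated, and the part of mapping in these absences was not tested.

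Genes that serve the clusters from elsewhere in the genome had few peaks, as had protein-coding genes in general. Of 17 genes of histone expression (including Npat, Slbp, Casp8ap2 and Pou2f1), 0, 0 and 1 had a peak in SOX15 replicates 1, 2 and 3 and 1 and 1 in SOX2 replicates 1 and 2. Among all protein-coding genes the shares were 0.62%, 1.95% and 1.23% for SOX15 and 5.27% and 8.27% for SOX2, and with 17 genes these counts cannot be set apart from them. The SOX2 peaks were at Pou2f1, with folds of 5.25 and 11.1, and the SOX15 peak was at Casp8ap2, with a fold of 5.05. The other 15 had none in any library. Of 13 replacement and non-cluster histone genes found in the table, 3, 2 and 2 had a peak for SOX15, beside 0.62%, 1.95% and 1.23% of all genes, and 2 and 0 had one for SOX2, beside 5.27% and 8.27%. H3f3b, which encodes the replacement histone H3.3, had SOX15 folds of 4.17, 6.84 and 6.51 and a fold of 7.74 in SOX2 replicate 1. H2ax, whose product is phosphorylated at DNA breaks, had 5.10 and 5.11 in SOX15 replicates 1 and 2 and 5.02 in SOX2 replicate 1. H4f16 had 4.81 and 10.3 in SOX15 replicates 1 and 3.

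Taken gene by gene, summits from 800 to 1000 bp from a member numbered 43 over the 5 libraries, with a median fold of 7.80 (3.42 to 20.6). Those from 1000 to 1200 bp numbered 12, with a median fold of 6.91 (4 to 18.8). Such a summit may lie nearer to another member: the 20.6, counted at H2ac8, lies 194 bp past the end of H2bc8. Both medians pool folds of different lists, which are comparable only within a list, so they do not compare the 2 distances. The models of 5 members are longer than 2 kb (H2bc22, H2bc23, H2bc6, H2bc4 and H2bc21) and take in more sequence. The H2bc6 model of 37455 bp ends at 23621124, shortly before the H1f4 gene, which begins at 23621777. H1f4 had a summit within 1 kb in every SOX15 library and in no SOX2 library. Some SOX15 peaks counted at H2bc6 may therefore lie near H1f4, which was not examined, while its SOX2 peaks do not.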

How the data were processed

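HA-tagged SOX2 and SOX15 ChIP-seq peaks in mouse embryonic stem cells were read from 5 deposited lists, 1 per library. Per the submitters' processing notes, which give no versions, Bowtie2, MACS2 and deepTools were used with mm10. The sources used here do not give whether inputs served as controls. The deposited columns are the authors' fold enrichment, a linear ratio, their −log10 p- and q-values, a summit offset, and an integer score that equals 10 times the −log10 q-value rounded down. Read depth is unknown from these lists, and a gene without a peak may lie under the threshold.

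Summits were matched to genes of the RefSeq table (GRCm38.p6) within 1 kb. Shares carry Wilson 95% intervals. Ranks are percentiles of fold within a list. No p-value was computed. The named genes were the 3 of each class with the highest mean SOX15 rank (a library without a peak counting as 0), the 5 with the highest mean SOX2 rank, every gene without a SOX15 peak and every gene of the chromosome 3 cluster; other genes named were chosen after their values were seen. The members and lists were chosen with earlier results of these data known, and the position zones after the positions were seen. Alternatives were other distances (500 bp, inside the gene), peaks above the median fold of each list, other library rules, each library left out, the nearest member only and other counts of positions. Reads of near-identical gene copies can map to several places. Scripts ran in Python 3.11.15 (scipy 1.17.1, pandas 2.3.3, numpy 2.4.6; figures with matplotlib 3.10.9) and were checked on planted peaks.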

Additional observations from a re-analysis of the deposited data

Results flagged for a closer look

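The median percentile rank of peaks at core histone genes, minus 50, was above 0 in each SOX15 library (9.91, 33.5 and 15; mean 19.5 ± 12.4, SD, n = 3) and below 0 in each SOX2 library (-4.63 and -23.8; mean -14.2 ± 13.5, SD, n = 2). Over all member peaks the factors thus took opposite signs in every library, with a difference of means of 33.7 percentile points. The signs were not opposite when each gene took its highest fold: the median rank over genes was then 66.8, 89.1 and 71.4 for SOX15, 69.6 in SOX2 replicate 1 and 34.1 in SOX2 replicate 2. The difference was not tested, and 2 libraries against 3 cannot give an exact p below 0.1. The SOX2 lists hold 2676 and 4817 peaks and the SOX15 lists 217 to 672, so factor and list length cannot be told apart here. Of 12 such contrasts between the factors, this was the 1 with opposite signs throughout.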

How the results depend on the processing

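No paired analysis was possible because no result comes from a test. Of the alternative settings, 147 left a value within its tolerance and 52 moved it, and the causes were not tested. The tolerance was a fixed ratio for counts, under which 32 SOX15 genes beside 44 stayed within it. For ranks and positions it was the SD between libraries. Leaving out 1 library of 2 or 3 cannot shift a mean by a full SD, so those settings stayed within tolerance by construction. The number 147 is therefore not a measure of robustness. The median rank of a gene's highest fold, averaged over the SOX2 libraries, was 51.9, and it fell to the other side of 50 with the peak nearest to the gene (33) and without SOX2 replicate 1 (34.1), against 69.6 without SOX2 replicate 2. With the summit inside the gene, the members with a repeated SOX15 peak fell from 44 to 12 (H2A 2, H2B 7, H3 3, H4 0; first and second chromosome 13 clusters 3 and 7, chromosome 3 2), and those with both SOX2 peaks from 23 to 3 (0, 3, 0 and 0; 0, 2 and 1). With peaks above the median fold of each list, SOX15 gave 29 (H2A 7, H4 4, chromosome 3 3) and SOX2 7 (2, 4, 1 and 0; chromosome 13 clusters 2 and 3). Within 500 bp, SOX2 gave 3 H2A, 2 H4 and 5 first-cluster genes. With any SOX2 library the count was 38 (H2A 9, H4 9; chromosome 13 clusters 16 and 19), and with every SOX15 library H4 gave 5 and chromosome 3 gave 3. Counting peaks at the nearest member only, an alternative chosen after seeing the data, gave 4 SOX15 genes on chromosome 3 and 3 SOX2 H2A genes. Summits past the end fell from 79.6% to 68.8% for SOX15 with every peak at its nearest member. With every peak and member within 1 kb, also chosen after seeing the data, they were 53.6% for SOX15 and 60.6% for SOX2, and with the strongest of all peaks within 1 kb, added likewise, 64.9% and 71.4%. Each library was also left out in turn, with a peak then required in every remaining library of the factor. Under this rule a SOX15 count can only stay or fall and a SOX2 count can only stay or rise, so the direction carries no information. The counts were 32 to 39 SOX15 genes (H2A 8 to 11, H2B 10 to 13, H3 9 to 11, H4 5 to 8; clusters 13 to 15, 16 to 19 and 3 to 6) and 24 to 37 SOX2 genes (H2A 5 to 9, H2B 8 to 12, H3 6 to 8, H4 5 to 8; clusters 10 to 15, 11 to 19 and 3). The low H4 value came without SOX15 replicate 1, the low chromosome 3 values without SOX15 replicates 1 and 2 (3 and 4), and the high SOX2 values without SOX2 replicate 2. Depth is unknown, so absent peaks set no upper limit.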
